A study of Mus musculus with 9 samples.

Results

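The 8 genes described here encode the core of MHC class II antigen presentation: the class II chains H2-Aa, H2-Ab1 and H2-Eb1, the invariant chain Cd74, the transactivator Ciita, and the peptide exchange factor chains H2-DMa, H2-DMb1 and H2-DMb2. They were chosen by name, as the rows of the count files whose Ensembl identifier maps to one of these symbols, and all 8 were found among 49315 genes. All 8 also passed the filter on low counts that left 14747 genes to test. The study measured polyA RNA by sequencing in brown adipose tissue, the fat depot that burns fuel for heat, of diet-induced obese mice treated with vehicle (4 mice) or cotadutide (5 mice). Cotadutide is a peptide that activates both the GLP-1 receptor and the glucagon receptor. Every mouse was a male of the C57Bl/6J strain, aged 14 weeks with a 3-week acclimation, kept on a 60% high fat diet until it weighed about 50 g, and housed singly, not at thermoneutrality. Vehicle or drug was injected under the skin once a day for 28 days, at a dose not given in the sources used here. Each library is 1 mouse, from 30 mg of the depot. The design text names the effect of cotadutide on this tissue as the question.

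MHC class II molecules are pairs of an alpha and a beta chain that carry peptides from engulfed proteins to the cell surface, where CD4 T cells read them. The invariant chain Cd74 fills the peptide groove during assembly, proteases of the endosome cut it down, and the H2-DM pair then swaps the last fragment for antigen peptides. Dendritic cells, macrophages and B cells are the usual makers of these proteins, and Ciita switches the genes on by joining factors already bound to conserved X and Y boxes in their promoters. C57Bl/6 mice are known to lack the I-E alpha chain, so that H2-Eb1 is transcribed without a partner.

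The promoters show what the genes of the family have in common, so the stretch that holds these boxes is given for the members where it was found. RefSeq windows from 250 bases before to 50 after the gene start (build GRCm38.p6) were at hand for H2-Aa, H2-Eb1, H2-DMa, H2-DMb1 and H2-DMb2, and not for H2-Ab1, Cd74 or Ciita. Capitals mark matches to 3 patterns read 5′ to 3′ on either strand: an X box pattern (CNGATGATG), the Y box (TGATTGG) and the cyclic AMP response element (TGACGTCA). The patterns were picked after these promoters had been read, so their presence here is a description of the letters only.
H2-DMb2, chr17:34145110-34145173, + strand: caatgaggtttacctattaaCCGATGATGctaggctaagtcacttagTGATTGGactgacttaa
H2-DMb1, chr17:34153091-34153120, + strand: tacctagtaaCTGATGATGctaggctgatt
H2-Aa, chr17:34287857-34287917, - strand: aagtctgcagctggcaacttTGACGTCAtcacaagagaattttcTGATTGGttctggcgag
H2-Eb1, chr17:34305760-34305822, + strand: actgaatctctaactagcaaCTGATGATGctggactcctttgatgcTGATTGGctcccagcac

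The X box pattern was found in H2-DMb2, H2-DMb1 and H2-Eb1, with 18, 18 and 17 bases between it and the Y box. For H2-DMb1 only 30 bases around the X box are printed, because the annotation of the files places the start of its first exon ahead of them. The H2-Aa window had no match to this X box pattern but had the cyclic AMP response element 16 bases ahead of its Y box. Of 32851 promoter windows of this length in the table, 0.956% held the X box pattern, 7.82% the Y box and 1.79% the cyclic AMP response element. X box pattern and Y box occurred together in 21 windows (0.0639%), of which H2-DMb1, H2-DMb2 and H2-Eb1 gave 1 each. The H2-DMa windows of RefSeq start 9664 and 12350 bases upstream of the gene start used in the files, and they held none of these letters.

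H2-DMb1 and H2-DMb2 are neighbouring copies of the H2-DM beta chain gene, and their sequences bear on how far their counts can be told apart. Below are 90 bases of exon 2 of each gene in the GENCODE annotation (build GRCm38), with the differing bases in capitals.
H2-DMb1, chr17:34155583-34155672, + strand: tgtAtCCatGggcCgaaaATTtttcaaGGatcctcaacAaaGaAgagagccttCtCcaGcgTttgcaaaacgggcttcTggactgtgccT
H2-DMb2, chr17:34147801-34147890, + strand: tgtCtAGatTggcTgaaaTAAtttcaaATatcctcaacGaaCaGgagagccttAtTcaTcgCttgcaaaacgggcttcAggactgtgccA

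Over the 282 bases of this exon the genes differed at 24 positions (91.5% identity), and 19 of the differences lie in the stretch shown. Of all windows of 50 bases in the transcript, 27.2% of those of H2-DMb1 occurred unchanged in H2-DMb2, while no window of the other 6 genes was shared with a member. How the submitters' counting treated reads that fit both copies is not given in the sources used here, so the split between H2-DMb1 and H2-DMb2 is uncertain. A small part of Ciita (2.11% of its exon bases) overlaps Dexi on the opposite strand, and 0.851% of the Cd74 exon bases overlap the microRNA gene Mir5107 on the same strand. The strand setting of the counting is not given in the sources used here.

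Libraries held 16064055 to 25108534 counts in the vehicle group and 10759631 to 19459796 in the cotadutide group, and levels are given as counts-per-million values (CPM), with these totals scaled by edgeR's TMM factors. Cotadutide mouse 3 stood apart in lymphocyte genes. It had the highest level of 11 of 12 B cell markers, 9 of 12 T and NK cell markers and 10 of 13 genes of the CD4 T cell side, and the lowest summed level of 18 macrophage markers. Cd79a, a chain of the B cell receptor, was at 11.03 CPM there against 0.648 to 1.24 CPM in the other 8 libraries. Results are therefore given with and without this mouse. The summed level of 16 skeletal muscle markers, which a brown fat depot need not hold, did not overlap between the groups. It was 23416 to 49123 CPM in the vehicle group and 5369 to 20399 CPM in the cotadutide group. A fit with a muscle score as a covariate is given with the macrophage markers below. That score also separates the groups, so the part of muscle in the class II results cannot be told apart from that of the treatment. The brown adipocyte marker Ucp1, which defines the labelled tissue, was at 2922 CPM per kilobase of transcript in the vehicle group and 3598 in the cotadutide group.

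No class II gene differed between the groups at an adjusted p under 0.05 in edgeR's quasi-likelihood fit, with Benjamini-Hochberg adjustment over all genes tested. The same threshold called 9.34% of all tested genes lower and 9.31% higher. At an unadjusted p under 0.05, edgeR gave 2 of the 8 genes (Cd74 and H2-DMb1), against 35.7% of all genes. DESeq2 (11.6% of all genes lower, 11.4% higher) and limma-voom (9.34% lower, 10.2% higher) also called 0 of 8, with 2 and 4 at an unadjusted p under 0.05. The log2 difference (cotadutide minus vehicle) was negative for 7 of the 8, with a median of -0.29 against 0.00 over all tested genes, and the ranges of the groups overlapped for every member. Among all tested genes, 7.79% had every cotadutide library below every vehicle library and 8.06% had every one above. Without cotadutide mouse 3 again 0 of 8 were called, where 5.61% of all genes were called lower and 3.74% higher, all 8 differences were negative, and their median was -0.41. The p-values rest on mice taken as separate animals, as the labels number them.

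**Figure D1:**
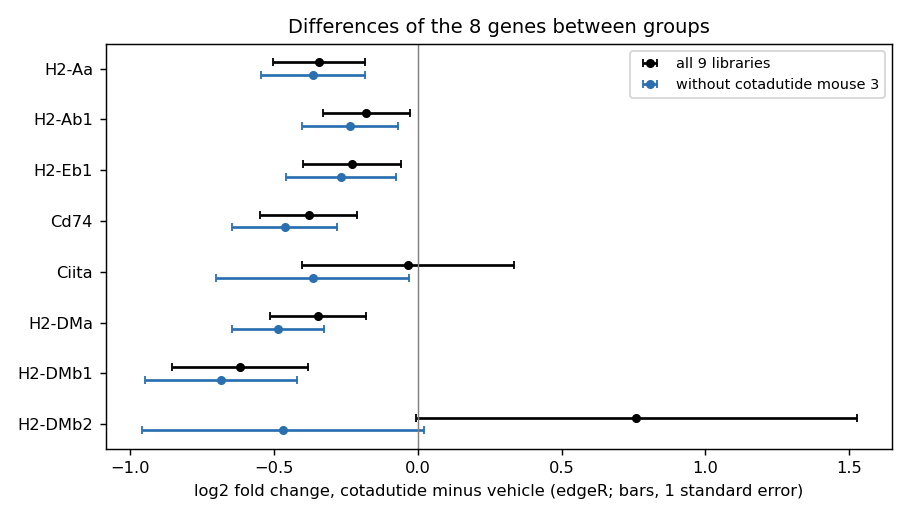
Log2 fold change of each class II gene, cotadutide minus vehicle, from edgeR, with all 9 libraries (black) and without cotadutide mouse 3 (blue); bars are 1 standard error. H2-DMb2 moves from 0.76 to -0.47 when that mouse is left out, while the other 7 genes keep a negative estimate.

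The classical chains came first in abundance together with Cd74. H2-Aa, the alpha chain of I-A, was measured at 112, 90.5, 81.4 and 81.9 CPM in vehicle mice 1 to 4 and at 96.1, 68.1, 71.6, 51.5 and 73.4 CPM in cotadutide mice 1 to 5. 4 of the cotadutide libraries lay below every vehicle library, and cotadutide mouse 1 lay above 3 of them. Its group means were 91.5 ± 14.4 (SD, n = 4) and 72.1 ± 15.9 CPM (SD, n = 5), a log2 difference of -0.34 (SE 0.16, edgeR adjusted p = 0.149, and -0.37, adjusted p = 0.192, without cotadutide mouse 3).

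H2-Ab1, the beta chain that pairs with H2-Aa, was at 93.9, 81.4, 72.9 and 78.4 CPM in the vehicle mice and 91.0, 67.0, 78.3, 49.1 and 75.3 CPM in the cotadutide mice. Cotadutide mice 2 and 4 lay below every vehicle library, and the other 3 lay inside the vehicle range. The log2 difference was -0.18 (SE 0.15, edgeR adjusted p = 0.419, and -0.24, adjusted p = 0.356, without cotadutide mouse 3). H2-Eb1, the beta chain of I-E, was at 109, 88.7, 81.8 and 80.2 CPM in the vehicle mice and 99.2, 72.6, 79.7, 50.1 and 82.4 CPM in the cotadutide mice. Its order of libraries was close to that of the I-A chains, with vehicle mouse 1 highest and cotadutide mouse 4 lowest. The log2 difference of H2-Eb1 was -0.23 (SE 0.17, edgeR adjusted p = 0.3597, and -0.27, adjusted p = 0.362, without cotadutide mouse 3).

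Cd74, the chaperone of all class II chains and a surface receptor for the cytokine MIF, was at 204, 161, 150 and 146 CPM in the vehicle mice and 159, 104, 147, 89.7 and 135 CPM in the cotadutide mice. Cotadutide mice 1 and 3 lay within the vehicle range, and the other 3 lay below it. Mean levels were 165 ± 26.8 CPM (SD, n = 4) and 127 ± 29.3 CPM (SD, n = 5), a log2 difference of -0.38 with SE 0.17. Its edgeR unadjusted p was 0.0467 and its adjusted p 0.134, and without cotadutide mouse 3 the difference was -0.46 with an adjusted p of 0.116.

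Ciita, the transactivator, was scarce. It was at 2.64, 1.48, 1.94 and 1.35 CPM in the vehicle mice and 2.37, 0.833, 3.27, 1.27 and 1.33 CPM in the cotadutide mice, from 13 to 68 counts a library. Cotadutide mouse 3 had the highest level and cotadutide mouse 2 the lowest, so that the cotadutide group spanned the whole vehicle range. The log2 difference was -0.04 (SE 0.37, edgeR adjusted p = 0.955) and -0.37 without cotadutide mouse 3 (adjusted p = 0.479). The standard error was larger than that of H2-Aa, and the spread between mice went beyond counting error, since the 95% exact Poisson intervals of cotadutide mouse 2 (0.444 to 1.43 CPM) and cotadutide mouse 3 (2.40 to 4.37 CPM) did not overlap.

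H2-DMa, the alpha chain of the exchange factor, was at 7.82, 7.03, 6.72 and 5.46 CPM in the vehicle mice and 5.76, 4.74, 6.97, 4.13 and 5.04 CPM in the cotadutide mice. 3 cotadutide libraries lay below the vehicle range, and mice 1 and 3 of that group lay inside it. The log2 difference was -0.35 (SE 0.17, edgeR adjusted p = 0.160), and -0.49 without cotadutide mouse 3 (adjusted p = 0.0727).

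H2-DMb1, the main beta chain of the exchange factor here, had the most negative difference of the 8. It was at 9.02, 10.4, 6.30 and 5.13 CPM in the vehicle mice and 6.89, 4.62, 5.62, 3.52 and 4.57 CPM in the cotadutide mice. Vehicle mice 1 and 2 lay above every cotadutide library, and vehicle mice 3 and 4 lay among them. Mean levels were 7.73 ± 2.44 CPM (SD, n = 4) and 5.04 ± 1.27 CPM (SD, n = 5), a log2 difference of -0.62 with SE 0.23, an edgeR unadjusted p of 0.0224 and an adjusted p of 0.0838. Without cotadutide mouse 3 it was -0.68 with an adjusted p of 0.109. With the counts of H2-DMb1 and H2-DMb2 summed, over all libraries, the log2 difference was -0.45 (edgeR adjusted p = 0.235).

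The call on 2 genes turned on single libraries. Without cotadutide mouse 1, edgeR called H2-Aa (log2 -0.50, adjusted p = 0.0320) and H2-DMb1 (log2 -0.80, adjusted p = 0.0400) lower, where 11.9% of all tested genes were called lower and 7.72% higher. Without vehicle mouse 4 it called H2-DMb1 lower (log2 -0.77, adjusted p = 0.0247), where 10.7% of all genes were and 14.3% were called higher. No member was called when any other library was left out.

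H2-DMb2, the other beta chain copy, had the widest standard error of the 8. It had 21, 14, 9 and 10 counts in the vehicle mice and 9, 3, 51, 17 and 1 counts in the cotadutide mice, which is 0.817, 0.576, 0.530 and 0.540 CPM and 0.463, 0.192, 3.63, 0.936 and 0.0952 CPM. Cotadutide mouse 3 was far above the other libraries, with a 95% exact Poisson interval of 2.70 to 4.77 CPM that covers counting error only. The log2 difference was 0.76 (SE 0.77, edgeR adjusted p = 0.507) with that mouse and -0.47 without it (adjusted p = 0.536). The same library held B cell marker RNA above all others, as given for Cd79a. With a B cell score of each library as a covariate the log2 difference of H2-DMb2 was -0.11 (edgeR adjusted p = 0.883). That score was 2.19 in cotadutide mouse 3 and -0.668 to 0.121 in the other libraries. The fit is thus close to leaving that mouse out, and it cannot separate B cells from other traits of the mouse. The part of B cells in the level of H2-DMb2 was not tested.

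**Figure D2:**
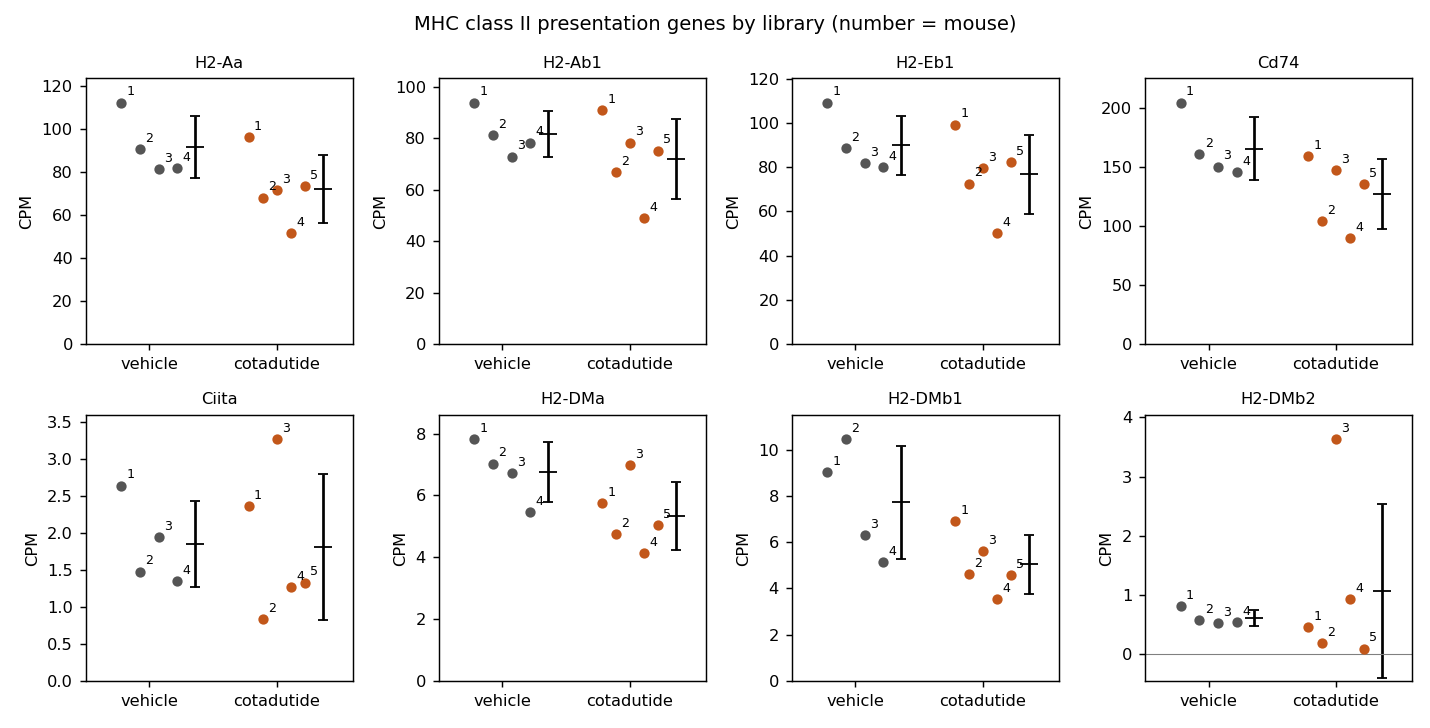
Level of each class II gene in every library, in CPM on linear axes, with the mouse number beside each point and the group mean with 1 SD. Vehicle mouse 1 is the highest library for H2-Aa, H2-Ab1, H2-Eb1, Cd74 and H2-DMa, and cotadutide mouse 3 stands at 3.63 CPM for H2-DMb2.

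Compared per kilobase of transcript, Cd74 was the most abundant member at 117 CPM per kilobase in the vehicle group and 90.1 in the cotadutide group. H2-Eb1 followed with 76.0 and 64.9, and H2-Ab1 with 49.9 and 44.1 CPM per kilobase. H2-Aa, at 48.8 and 38.5 CPM per kilobase, was next to H2-Ab1 and within 1 SD of it in both groups. H2-DMb1 (5.20 and 3.397) and H2-DMa (4.12 and 3.25) did not differ beyond their spread, and both lay far below the chains they serve on this scale. H2-DMb2 (0.36 and 0.622) and Ciita (0.353 and 0.345) were the lowest and did not differ beyond their spread.

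Cd74 and the 3 classical chains held 95.1 to 97.1% of the summed CPM of the 8 genes in each library. Their sum was 520, 422, 386 and 386 CPM in the vehicle mice and 446, 312, 377, 240 and 366 CPM in the cotadutide mice. Group means were 428 ± 63.0 CPM (SD, n = 4) and 348 ± 76.8 CPM (SD, n = 5), and the ranges overlapped through cotadutide mouse 1. Cotadutide mouse 4 was the lowest library for 6 of the 8 genes and vehicle mouse 1 the highest for 5.

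Ratios of counts within a library do not depend on how libraries are scaled, and 3 were compared. The ratio of H2-Aa to H2-Ab1 counts was 1.19, 1.11, 1.12 and 1.05 in the vehicle mice and 1.06, 1.02, 0.915, 1.05 and 0.975 in the cotadutide mice. Alpha chain counts were thus lower relative to beta chain counts in most cotadutide libraries, with an overlap at vehicle mouse 4. Means were 1.12 ± 0.061 (SD, n = 4) and 1.00 ± 0.059 (SD, n = 5), with a 2-sided exact permutation p of 0.0397 and 0.119 after adjustment over the 3 ratios, where 0.00794 is the smallest p that splits of 9 libraries allow. Without cotadutide mouse 3 the difference in means was -0.0923 (adjusted exact permutation p = 0.129).

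The ratio of Cd74 to the sum of both I-A chains was 0.953 ± 0.037 (SD, n = 4) in the vehicle group and 0.881 ± 0.077 (SD, n = 5) in the cotadutide group, with an exact permutation p of 0.127 (adjusted 0.190). The ratio of H2-DMa to the sum of both H2-DM beta chains was 0.844 ± 0.161 (SD, n = 4) and 0.906 ± 0.138 (SD, n = 5), with an exact permutation p of 0.556 (adjusted 0.556). The split of counted reads between the copies does not affect this ratio, but leaving out reads that fit both copies would. None of the 3 ratios passed the threshold after adjustment, with or without cotadutide mouse 3.

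**Figure D3:**
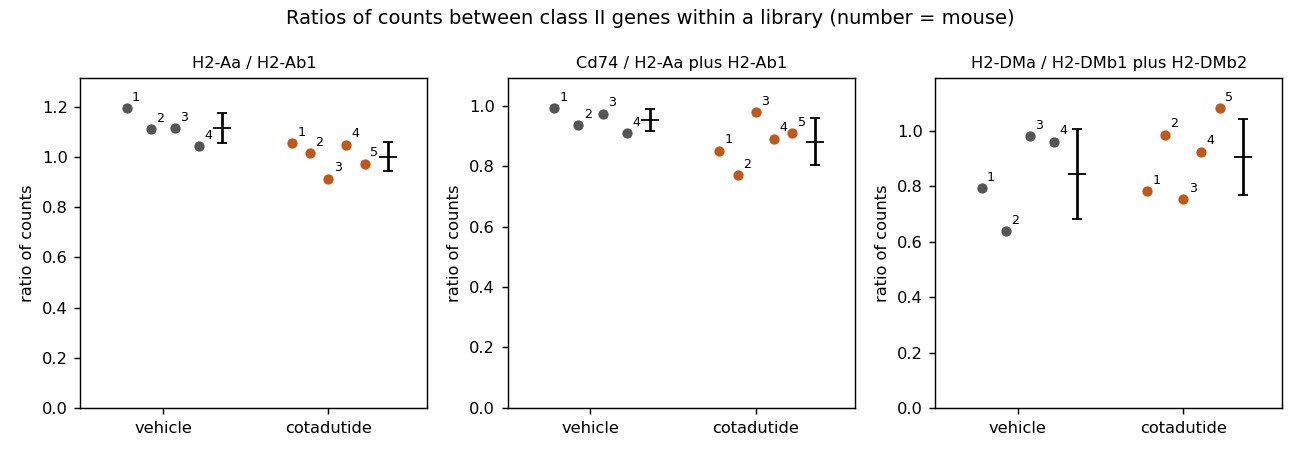
Ratios of counts between class II genes within each library, on linear axes from 0, with the mouse number beside each point and the group mean with 1 SD. The H2-Aa to H2-Ab1 ratio lies between 1.05 and 1.19 in the vehicle mice and between 0.915 and 1.06 in the cotadutide mice.

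The members also varied together among mice of the same group. Pearson's r was taken between the deviations of log2 CPM from each gene's own group mean over 9 libraries, as a description. The libraries are shared by all genes, as are their depth and tissue makeup. Among H2-Aa, H2-Ab1, H2-Eb1 and Cd74 the 6 values of r lay between 0.91 and 0.98, and between 0.94 and 0.99 without cotadutide mouse 3. These 4 genes had r of 0.67 to 0.84 with H2-DMa and H2-DMb1, and of 0.52 to 0.77 with Ciita. H2-DMb2 had r of -0.10 to 0.18 with the same 4 genes and 0.70 with Ciita, and without cotadutide mouse 3 these became -0.37 to -0.20 and 0.35.

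**Figure D4:**
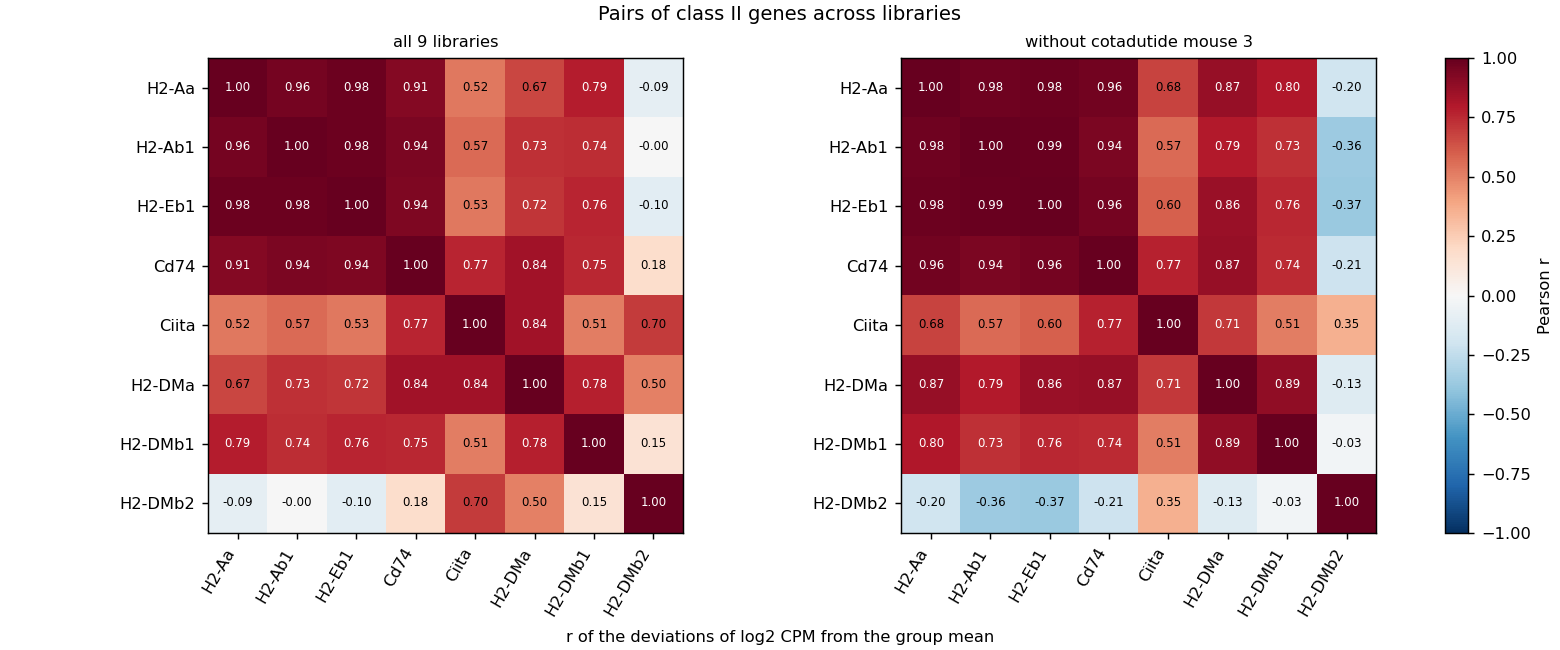
Pearson r between each pair of class II genes, over 9 libraries (left) and without cotadutide mouse 3 (right), from deviations of log2 CPM from the group mean; the colour scale runs from -1 to 1. The block of the 4 abundant genes stays at 0.91 or above in both panels, and the H2-DMb2 row is the palest.

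Of 9775 tested genes with a mean of at least 5 CPM, those whose deviations were most like the mean of the 8 members were Zmynd8 (r = 0.953), Bcl10 (r = 0.947), Irf8 (r = 0.938), Ttll1, Ptpn6, Rell1, Adcy7 and Edem2 (r = 0.901). Bcl10 is a signalling adaptor of lymphocytes and Irf8 a transcription factor of dendritic cells, macrophages and B cells. The 4 abundant members themselves had r of 0.58 to 0.79 with the mean of the other 7 members, and H2-DMb2 had 0.29. With the mean of these 4 abundant members, the 8 genes just named had lower r, from 0.48 (Ptpn6) to 0.77 (Edem2). The order of genes is given over all 9 libraries only. Against the mean of H2-Aa, H2-Ab1, H2-Eb1 and Cd74 alone, a choice made after the values were seen, the order was headed by Elovl1 (r = 0.962), Mxra7 (r = 0.953) and Praf2 (r = 0.929), followed by Fcgr2b, an inhibitory antibody receptor (r = 0.907), and Lsp1, a leukocyte actin-binding protein (r = 0.898).

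The cells that usually carry class II proteins were followed by marker genes. None of the marker and pathway lists given from here on had a call without vehicle mouse 1 or without vehicle mouse 2. There edgeR called 139 and 147 of all genes (4010 and 4359 at an unadjusted p under 0.05). Over all genes it called 738 and 3704 without vehicle mice 3 and 4. Without cotadutide mice 1 to 5 in turn it called 2839, 814, 1364, 2160 and 2398, and under the replicate block 1284. With all 9 libraries 9.34% of all tested genes were called lower and 9.31% higher, the shares to set beside each list. Of 18 macrophage markers, 6 fell (Csf1r, Adgre1, Cd68, Mrc1, Lyz2 and Itgam) and 0 rose by edgeR at an adjusted p under 0.05, 16 had a negative log2 difference, and their median was -0.63. Csf1r, the growth factor receptor of macrophages, was at 27.0 to 38.9 CPM in the vehicle mice and 12.6 to 23.2 CPM in the cotadutide mice (log2 -0.77, edgeR adjusted p = 0.0240). Summed over the list the range was 409 to 663 CPM in the vehicle group and 247 to 542 CPM in the cotadutide group, and none of the 18 was at 0 in any library. The count of 6 became 2 without vehicle mouse 3 or 4, 12, 0, 1, 1 and 4 without cotadutide mice 1 to 5 in turn, and 0 without vehicle mouse 1 or 2. The adipocyte lists had the opposite sign: 4 of 7 adipocyte and 4 of 10 brown adipocyte markers rose, 0 of either had a negative difference, and the adipocyte sum was 16597 to 20083 CPM in the vehicle group and 23067 to 27495 CPM in the cotadutide group. The part of the adipocyte share in the class II and macrophage levels was not tested. With a macrophage score of each library as a covariate the log2 differences were -0.07 for H2-Aa, 0.00 for H2-Ab1, 0.00 for H2-Eb1, -0.19 for Cd74 and 0.00630 for Ciita. In the same fit they were -0.38 for H2-DMa, -0.37 for H2-DMb1 and -0.78 for H2-DMb2. That fit called 0 of all 14747 genes by edgeR (1680 at an unadjusted p under 0.05), and the score itself differs between the groups. With a skeletal muscle score as a covariate the log2 differences were -0.25 for H2-Aa, -0.14 for H2-Ab1, -0.17 for H2-Eb1 and -0.40 for Cd74. In the muscle fit they were -0.54 for Ciita, -0.63 for H2-DMa, -0.71 for H2-DMb1 and -1.72 for H2-DMb2. It also called 0 genes (2142 at an unadjusted p under 0.05), and the muscle score differs between the groups as well. The part of either score and that of the treatment cannot be told apart. In tissue RNA, fewer cells of a type and less RNA per cell cannot be told apart.

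Of 12 dendritic cell markers 9 were tested, and 2 fell: Itgax, an integrin chain shared with macrophages (log2 -1.30, edgeR adjusted p = 0.0252), and Fscn1, an actin-bundling protein (log2 -0.72, edgeR adjusted p = 0.0365). Of this list 0 were called without cotadutide mouse 2 or 3, and 1 without vehicle mouse 3 or cotadutide mouse 1, 4 or 5. Of 12 B cell markers 6 were tested and 0 called by edgeR (1 without cotadutide mouse 3). The sum of the B cell markers ranged from 46.4 to 118 CPM in the vehicle group and from 15.5 to 147 CPM in the cotadutide group. The top value was that of cotadutide mouse 3. Cotadutide mice 1, 2, 4 and 5 were at 45.9, 15.5, 30.1 and 33.8 CPM, below every vehicle library. Of 12 T and NK cell markers 5 were tested and 0 called (1 without cotadutide mouse 1). The sum of that list was 19.0 to 33.0 CPM in the vehicle group and 11.7 to 37.4 CPM in the cotadutide group. Thy1, a gene of that list, alone had a mean of 14.5 CPM over all libraries. With the B cell score, which mainly marks cotadutide mouse 3, as a covariate edgeR called 0 class II genes and 2343 of all 14747 genes. The part of any of these cells in the class II levels was not otherwise tested.

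**Figure D5:**
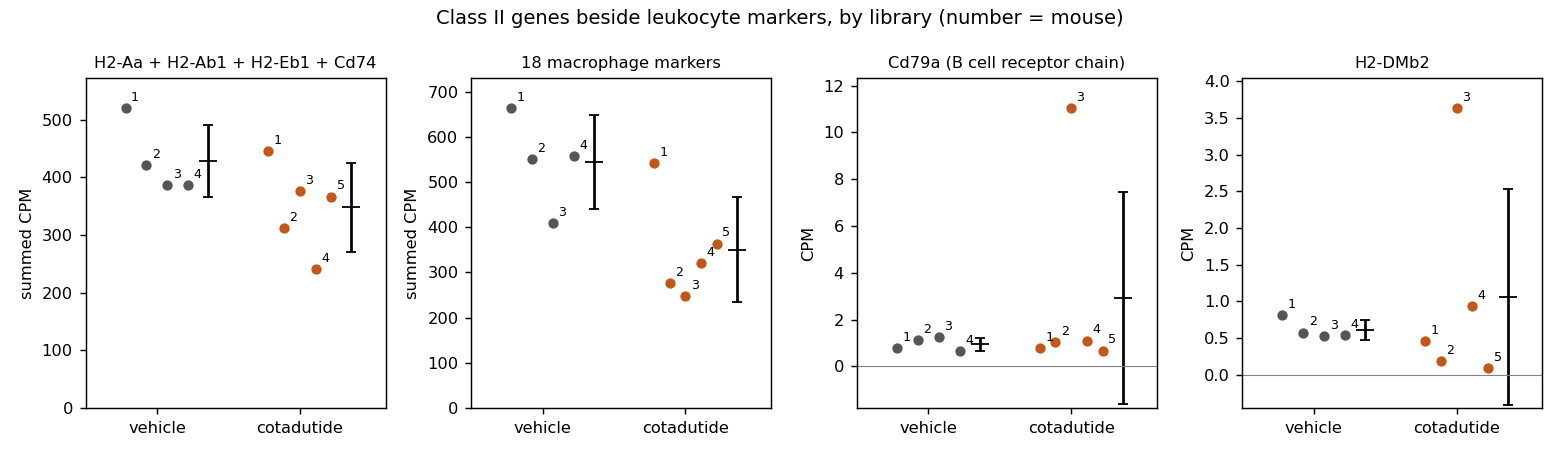
Summed CPM of H2-Aa, H2-Ab1, H2-Eb1 and Cd74, summed CPM of 18 macrophage markers, and CPM of the B cell receptor chain Cd79a and of H2-DMb2, by library, with the mouse number and the group mean with 1 SD. Cotadutide mouse 3 has the lowest macrophage sum (247 CPM) and the highest Cd79a (11.03 CPM) and H2-DMb2 (3.63 CPM).

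The other class II genes were 6, of which 4 could be tested and 0 were called by edgeR. H2-Ob, the beta chain of H2-O, an inhibitor of H2-DM that B cells make, was at 0.370 to 0.864 CPM in the vehicle mice and at 0.566, 1.03, 7.47, 0.826 and 1.14 CPM in the cotadutide mice. As with H2-DMb2, the top value was that of cotadutide mouse 3 (log2 1.88, SE 0.79, edgeR adjusted p = 0.113). The most abundant of this list per kilobase were Sppl2a, a protease that removes the last invariant chain remnant (9.38 and 8.33 CPM per kilobase), and Cd83 (3.52 and 2.69). The alpha chain partner of H2-Ob, H2-Oa, was too low to test, with 13 counts in that mouse and 0 to 4 in the other libraries.

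Among proteases and helpers that trim the invariant chain and antigens, 10 of 11 genes were tested, of which 1 fell and 3 rose. The one that fell was Ctss, cathepsin S, the protease that makes the late cuts in the invariant chain. It was at 51.6, 55.4, 29.6 and 47.4 CPM in the vehicle mice and 38.1, 16.1, 20.4, 15.4 and 19.7 CPM in the cotadutide mice (log2 -1.06, SE 0.27, edgeR adjusted p = 0.0258). Cotadutide mouse 1 was the sole library of its group above the lowest vehicle library. Cst3, the protease inhibitor cystatin C (log2 0.56, edgeR adjusted p = 0.0215), Ctsf, cathepsin F (log2 0.46, adjusted p = 0.0207), and Ctsz, cathepsin Z (log2 0.73, adjusted p = 0.0489), rose. Ctsd, cathepsin D, the most abundant of the list per kilobase after Cst3, was at 430 and 460 CPM per kilobase (edgeR adjusted p = 0.574). The list had 1 call in place of 4 without vehicle mouse 3 or cotadutide mouse 3, 2 without cotadutide mouse 2 or 4, and 0 with the mouse number as a replicate block.

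The factors that occupy the X and Y boxes are made in most cells. Of 11 genes for these factors and for coactivators, 1 was called. Rfxank, a subunit of the RFX complex of the X box, was at 13.2 to 19.0 CPM in the vehicle mice and 20.04 to 26.6 CPM in the cotadutide mice and rose by 0.54 on the log2 scale (SE 0.12, edgeR adjusted p = 0.0196). The list had 0 calls without vehicle mouse 3 and under the replicate block, and 2 without cotadutide mouse 4. The partner Rfx5, at 3.29 to 4.08 and 1.90 to 4.68 CPM, had a log2 difference of -0.28 (edgeR adjusted p = 0.395). The most abundant of the list per kilobase were the coactivator Kat2b (11.5 and 9.78 CPM per kilobase) and Nfyc, a subunit of the Y box factor (10.98 and 11.1). Of 14 genes that induce or restrain Ciita 12 were tested. The kinases Jak1 (log2 -0.35, edgeR adjusted p = 0.0184) and Jak2 (log2 -0.33, edgeR adjusted p = 0.0365), which carry the interferon signal, fell. The list had 3 calls in all, 2 without cotadutide mouse 3, 1 without vehicle mouse 3 or cotadutide mouse 2, and 6 without cotadutide mouse 1. The interferon gamma receptor chain Ifngr1, the most abundant of the list, was at 30.4 and 34.4 CPM per kilobase (edgeR adjusted p = 0.318). The interferon gamma gene Ifng had 0 counts in 7 of the 9 libraries and 2 in each of the others.

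On the side of the T cell, 5 of 9 costimulation genes were tested and 1 fell, Cd86, a ligand of CD28 on T cells. It was at 2.76, 2.55, 2.12 and 2.38 CPM in the vehicle mice and 1.80, 0.962, 1.35, 1.38 and 1.62 CPM in the cotadutide mice, without overlap (log2 -0.79, SE 0.21, edgeR adjusted p = 0.0284). The list had 0 calls without vehicle mouse 3, without cotadutide mouse 2 or 3 and under the replicate block, and 2 without vehicle mouse 4. The checkpoint ligand Cd274 (7.88 and 9.27 CPM per kilobase) and the adhesion molecule Icam1 (2.43 and 1.77) were its most abundant genes. Of 13 genes of CD4 T cells 7 were tested and 0 called, and Lag3, a receptor that binds class II molecules, was their most abundant gene at 3.26 and 3.65 CPM per kilobase, followed by Trac at 0.726 and 1.21.

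Cd74 is also a receptor, and 5 of 6 of its ligands and partners were tested, of which 1 rose and 2 fell. Ddt, a relative of the cytokine MIF that binds Cd74, was at 85.5, 91.3, 101 and 208 CPM in the vehicle mice and 251, 336, 282, 213 and 232 CPM in the cotadutide mice. Every cotadutide library was above every vehicle library, by a narrow margin at vehicle mouse 4 (log2 1.11, SE 0.26, edgeR adjusted p = 0.0219). Cd44, the signalling partner of Cd74, fell (log2 -1.18, edgeR adjusted p = 0.0163), as did the chemokine receptor Cxcr4 (log2 -0.79, edgeR adjusted p = 0.0495). Mif itself was at 93.3 and 116 CPM per kilobase (log2 0.32, edgeR adjusted p = 0.177). The list again had 3 calls without cotadutide mouse 3, but 1 without vehicle mouse 3, without cotadutide mouse 2 and under the replicate block.

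The members H2-DMa, H2-DMb2, H2-DMb1, H2-Ab1, H2-Aa and H2-Eb1 lie in this order on chromosome 17 between 34135182 and 34316199, a span of 181 kb (build mm10). Ciita lies on chromosome 16 and Cd74 on chromosome 18. The files list 9 other genes inside the span, of which 5 could be tested and 2 rose, both of the class I route. Tap2, a subunit of the peptide pump of that route, was at 33.9, 38.6, 32.9 and 40.2 CPM in the vehicle mice and 50.3, 52.7, 58.5, 45.6 and 42.9 CPM in the cotadutide mice, without overlap (log2 0.46, SE 0.10, edgeR adjusted p = 0.0187). Psmb8, an immunoproteasome subunit, also rose (log2 0.46, SE 0.14, edgeR adjusted p = 0.0387). All 5 tested neighbours had a positive log2 difference (median 0.49), whereas 5 of the 6 members among them had a negative one. 1 of these 5 neighbours is the class II gene H2-Ob, with 105 counts in cotadutide mouse 3 and 7 to 18 in the other libraries. H2-DMb2, the member with a positive difference, was also highest in that mouse. The neighbours' differences are given over all libraries only. Whether members and neighbours differ in their response was not tested. Of all 14 class I genes examined these 2 rose and 0 fell, where 9.31% of all tested genes were called higher and 9.34% lower. The most abundant were B2m (532 and 413 CPM per kilobase, edgeR adjusted p = 0.108) and H2-D1 (207 and 210 CPM per kilobase). The list had 1 call without cotadutide mouse 1, 2 or 3, 0 without vehicle mouse 3 and 4 without vehicle mouse 4.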

How the data were processed

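PolyA RNA was made into libraries by the NEBNext Ultra method, per the labels' protocols. Per the submitters' processing notes, bcl2fastq 2.17, Trimmomatic 0.36, STAR 2.5.2b and featureCounts of Subread 1.5.2 were used with build mm10. The deposited values are whole-number counts per Ensembl gene, not normalized, 49315 genes in each of 9 files; 48970 matched a symbol.

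Groups were taken from the sample titles. edgeR 4.0.16 (R 4.3.3) fitted all 9 libraries on group alone with TMM factors (0.915 to 1.06), the filterByExpr low-count filter and robust quasi-likelihood tests, with Benjamini-Hochberg adjustment over 14747 genes and a threshold of 0.05. The script was tested on simulated data. The common coefficient of biological variation was 17.0%. No within-group pair of libraries differed by less than sampling noise (lowest chi-square per degree of freedom 12.7). Fold changes are cotadutide over vehicle, and per-kilobase levels use the length column of the files. The 3 ratios had exact permutation tests. Alternatives were RLE factors, plain totals, no mitochondrial genes, other filters, DESeq2 1.42.0, limma-voom (limma 3.58.1), a mouse-number block, muscle, macrophage and B cell scores as covariates, the H2-DM beta copies summed, a log2 ratio and each library left out.

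The members, lists and tests were chosen with earlier results of these data known. Named genes are all members, up to 3 called genes of each context list with the smallest adjusted p and the 2 with the highest level per kilobase, the 8 genes most like the members, and called locus neighbours; genes outside this rule are given as examples chosen after their values were seen. The left-out mouse 3 was chosen for its lymphocyte markers. A further fit without 2 cotadutide libraries was run and is not reported, because 1 of them was picked on the levels of the members. Figures were drawn with matplotlib 3.10.9. Some genes of the lists are not reported here.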

Additional observations from a re-analysis of the deposited data

Results flagged for a closer look

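In 42 groups of 4 or 5 mice the lowest and highest library were compared with the rest of their group, and 8 stood apart beyond the 95% limit of Dixon's test; chance does so in about 1 in 20 groups. Cotadutide mouse 3 was the high library of its group for H2-DMb2 (3.63 CPM), the summed B cell markers (147 CPM), H2-Ob (7.47 CPM), H2-Oa (0.925 CPM) and Pax5, the B cell transcription factor (4.20 CPM). Vehicle mouse 1 was high for H2-DMb2 (0.817 CPM) and for the summed T and NK cell markers (33.0 CPM). Cotadutide mouse 1 was high for Ctss (38.1 CPM).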

How the results depend on the processing

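The count of class II genes called was 0 under all 12 settings that kept every library, and 0 to 2 when single libraries were left out. H2-Aa, H2-Eb1, Cd74, H2-DMa and H2-DMb1 had a negative difference under all 21 settings (for H2-DMb1, the summed copies in 1 of them). H2-DMb2 did not pass the stricter filter. Over all genes the calls were 2751, and 139 to 3704 when single libraries were left out. With the muscle or the macrophage score as a covariate 0 genes were called by edgeR (2142 and 1680 at an unadjusted p under 0.05).

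The direction of low genes was not stable. H2-DMb2, 0.76 on the log2 scale, was -0.13 by limma-voom, -1.72 with the muscle score, -0.78 with the macrophage score, -0.11 with the B cell score and -0.47 without cotadutide mouse 3, within -0.47 to 1.02 over single libraries left out. With the macrophage score H2-Ab1 was 3.58e-05 and Ciita 0.00630. Ciita was 0.20 without vehicle mouse 1 and 0.14, 0.05 and 0.02 without cotadutide mice 2, 4 and 5, within -0.37 to 0.20 over single libraries left out. The difference in the H2-DMa to H2-DM beta ratio ran from -0.00679 to 0.108 as single libraries were left out, the negative value without vehicle mouse 2. The cause was not tested.

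Between mice with the same number in both groups the deviations had r of 0.14, -0.04, 0.02 and -0.01 for numbers 1 to 4. The labels state no pairing by number, and these values cannot exclude one. With the mouse number as a replicate block 0 members and 1284 genes were called. Under the block of numbers 1 to 4 the ratio differences were -0.107 for H2-Aa to H2-Ab1, -0.0793 for Cd74 to both I-A chains and 0.0181 for H2-DMa to its beta chains. Ciita, H2-DMb2 and H2-Oa had at most 68, 51 and 13 counts in a library, and for Ciita and H2-DMb2 the spread between mice also went beyond counting error.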
